A study of Mus musculus with 816 samples.

Results

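The cultures described here are the 4 cultures of mouse microglia that received TGFb alone and were collected 72 h later. They were chosen by their labelled stimulus and duration, from 784 stimulated or untreated cultures and 816 samples in the whole series, and no measured value was used to choose them. Microglia, the resident macrophages of the brain, had been purchased as primary cells from neonatal mice and plated on poly-lysine in 96-well plates. TGFb (transforming growth factor beta) was added with fresh medium 4 days after plating, at 0.0001 µg/µl. The question was which genes changed against microglia left without a stimulus for the same 72 h (25 cultures). Shown beside this are cultures of 24 h with TGFb at the same dose (8) or without a stimulus (40). Others were kept for 72 h with low-dose LPS (lipopolysaccharide, 0.00001 µg/µl), with TGFb (8) or without it (11). RNA was amplified and sequenced from its 3' ends, so that the level of a gene is given in CPM, its reads scaled to the total of mapped reads.

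TGFb is secreted in a latent form and, once released, binds a pair of receptor kinases, TGFBR2 and TGFBR1. These phosphorylate SMAD2 and SMAD3, which enter the nucleus with SMAD4 and bind DNA with other factors. The pathway induces its own inhibitors, among them SMAD7, SKI and PMEPA1. In the brain TGFb is known as a signal needed for the homeostatic gene programme of microglia, and microglia in culture are known to lose much of that programme.

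All 4 TGFb cultures came from 1 plate and 1 library pool. Culture 1 lay in an edge well of the plate and cultures 2, 3 and 4 in middle wells. Of the 25 untreated cultures, 10 stood in middle wells of the same plate, and 15 in edge wells of 3 other plates, so among the untreated cultures plate and edge position cannot be told apart. All 72 h cultures were from 1 lot of cells, and no label ties wells to separate animals. The p-values on the same plate therefore measure the spread between wells. Those against all 25, fitted without a plate term, also hold the spread between plates and well positions. They treat wells as independent although all TGFb cultures share 1 plate. Read totals were estimated from the step between low values, which 74.8 to 79% of low values fitted in the TGFb cultures, so they are rough. The estimates were 10100000, 2840000, 10600000 and 6880000 mapped reads in TGFb cultures 1 to 4. For the untreated cultures they were 1680000 to 9220000 on the same plate and 3990000 to 24600000 on other plates. Across genes, the log2 values of untreated cultures on the same plate correlated with each other at r = 0.864 to 0.960, and with those on other plates at r = 0.673 to 0.883. Results are therefore given against all 25 untreated cultures, as designed, and against the 10 of the same plate. For some genes and lists the values of only 1 of these comparisons are printed.

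The cells carried general macrophage and microglial transcripts. Aif1, which encodes the cytoskeletal marker IBA1, was at 98.4, 97.9, 93.042 and 116 CPM in TGFb cultures 1 to 4, and Adgre1, the F4/80 antigen, at 344, 608, 330.5 and 373.4 CPM. Markers that set microglia apart from other macrophages were uneven. Sall1, a transcription factor of microglial identity, was low at 3.16, 2.46, 4.32 and 2.46 CPM, as was P2ry12, a purine receptor, at 5.04, 14.7, 14.1 and 12.9 CPM. Fcrls, Cx3cr1, Olfml3 and Tmem119 were at 84.5 CPM or more in all 4. Markers of lymphocytes summed to 0 to 2.13 CPM over 9 genes in the TGFb cultures, and those of neutrophils to 1.16 to 4.56 CPM over 8 genes. Astrocyte markers (8 genes) summed to 16.7 to 24.0 CPM with TGFb and to 12.1 to 60.0 CPM in the untreated cultures of the plate. Neuronal markers (7 genes) summed to 0.751 to 9.12 and 3.73 to 35.1 CPM, and the 1 tested was called lower on the plate (log2 fold change -1.91) and not against all 25. The 9 fibroblast and mural markers summed to 7.41 to 149 CPM with TGFb against 3.72 to 44.5 CPM. Of them Col1a1, Col1a2 and Acta2 were highest in TGFb culture 4, while Dcn and Lum were at 0 in all 4. Endothelial markers (6 genes) summed to 103 to 135 CPM with TGFb and 36.4 to 75.0 CPM without on the plate. Most of this was Flt1, a VEGF receptor that rose (log2 fold change 2.16 ± 0.47 SE, adjusted p = 0.00921 against all 25), while Cldn5 and Tek were at 0. Oligodendrocyte lineage markers (9 genes) summed to 71.3 to 117 and 30.8 to 69.5 CPM, with Mog, Olig2 and Sox10 at 0. Of them the proteoglycan Cspg4 rose (2.83 ± 0.62 SE, adjusted p = 0.00952 against all 25). The calls of Flt1 and Cspg4 were lost without 3 of the 4 cultures in turn. Monocyte markers (6 genes) summed to 3.16 to 7.66 and 6.80 to 27.9 CPM, and the 1 tested was called lower on the plate (-1.23) and not against all 25.

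At 72 h, 74 genes were higher with TGFb and 29 were lower, of 10714 tested against all 25 untreated cultures. A gene was called where its limma adjusted p (Benjamini-Hochberg) was under 0.05 and its change at least 2-fold, which 0.961% of the tested genes met, 0.691% higher and 0.271% lower. Against the 10 untreated cultures of the same plate, 187 genes rose and 414 fell of 9788 tested (6.14%, with 1.91% higher and 4.23% lower). The median log2 fold change over all genes was 0.14 against all 25 and -0.15 on the same plate. Rescaling by median-of-ratios size factors moved the latter to -0.003 and the calls to 237 higher and 313 lower. The comparisons share the 4 TGFb cultures and 10 untreated ones, so their calls are given side by side and not as support for each other. Leaving out TGFb culture 1, 2, 3 or 4 changed the 103 calls against all 25 to 73, 57, 62 and 58, and the 601 on the same plate to between 541 and 586. Against all 25, the calls of Cx3cr1, Igfbp5, Tgfbi and Mylip were lost without any 1 of the 4 cultures. Their log2 fold changes then were 3.96 to 4.26, 3.54 to 3.71, 2.09 to 2.53 and 1.01 to 1.15.

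**Figure D1:**
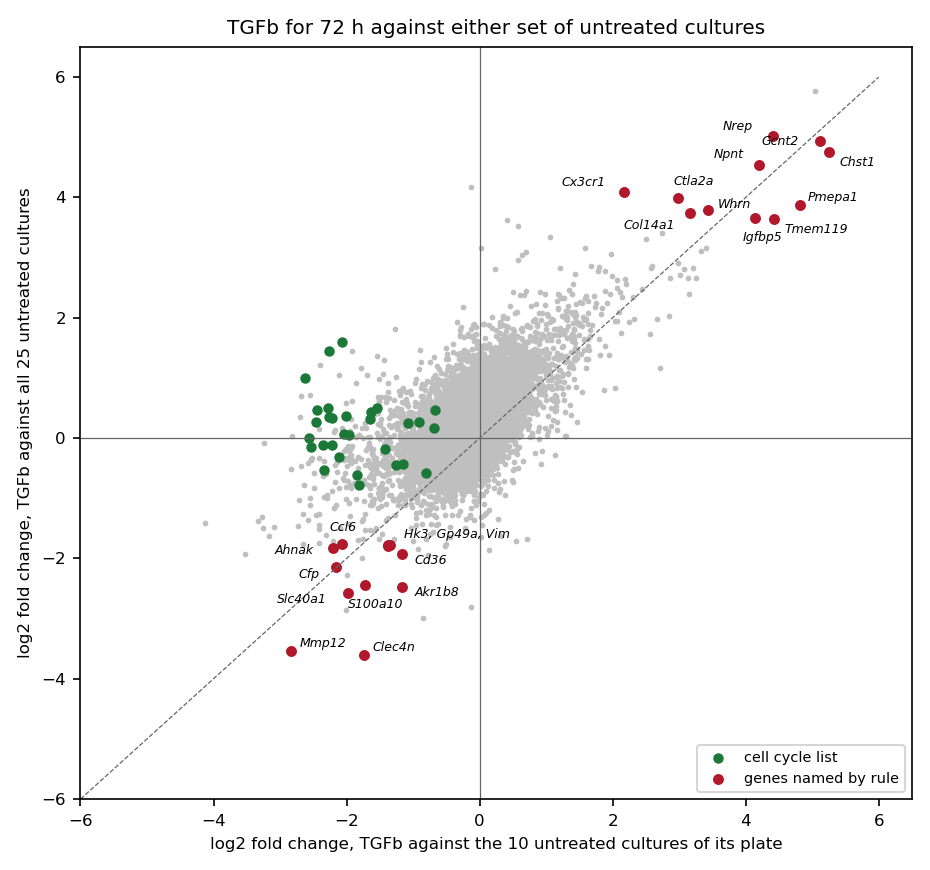
Log2 fold change (log2(CPM + 1) scale) of every gene tested in both comparisons, TGFb against the 10 untreated cultures of the same plate on one axis and against all 25 on the other, with the 23 genes named by rule in red and the cell cycle list in green. The named genes lie far from 0 on both axes, while the cell cycle genes are near 0 against all 25 (median 0.20) and at a median of -2.02 on the same plate.

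Pmepa1, known as a direct target of TGFb signalling, was among the largest rises. It encodes a membrane protein that holds back SMAD2 and SMAD3. Pmepa1 stood at 234, 288, 291 and 345 CPM in TGFb cultures 1 to 4 and at 3.27 to 17.5 CPM (median 9.47) in the untreated cultures beside them, while those of other plates ranged over 10.3 to 151 CPM (median 26.2). All 4 TGFb cultures lay above every untreated culture. The log2 fold change, on the scale of log2(CPM + 1) and with its standard error (SE), was 3.87 ± 0.59 SE, adjusted p = 0.000138 against all 25. On the same plate it was 4.81 ± 0.28 SE, adjusted p = 4.13e-10.

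Among 13 tested genes that damp TGFb signalling, 1 (Pmepa1) rose against all 25 untreated cultures (0.691% over all genes). On the same plate 3 rose and 0 fell (1.91% and 4.23% over all genes), with a list median of 0.67. Another was Ski, which encodes a co-repressor of SMADs, at 343, 310.1, 323.16 and 291 CPM with TGFb and 86.6 to 136 CPM (median 109) without. The third was Bambi, a decoy receptor without a kinase, at 157, 124, 142 and 107 CPM with TGFb and 7.72 to 27.1 CPM (median 20.9) without. On the plate the log2 fold change was 1.4996 ± 0.12 SE, adjusted p = 2.64e-08 for Ski and 2.72 ± 0.24 SE, adjusted p = 9.29e-08 for Bambi. Both were above all untreated cultures of the plate but within the range of other plates, which reached 376 CPM for Ski and 228 CPM for Bambi. Smad7, the inhibitory SMAD, did not pass (13.032, 9.82, 8.92 and 20.5 CPM with TGFb, 0 to 10.3 CPM (median 6.70) without, adjusted p = 0.138 on the same plate). The 7 tested SMAD genes gave 0 calls in either comparison, with a same-plate median of -0.056. Smad3, for example, was at 118, 105, 88.4 and 154 CPM with TGFb and 59.5 to 174 CPM (median 104) without, and the groups overlapped.

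Of the receptors, 1 of 8 tested rose against all 25 (0.691% over all genes). On the same plate, where 1.91% of all genes rose and 4.23% fell, 2 of 7 rose, with a median of 0.44. Tgfbr1, the kinase that phosphorylates SMAD2 and SMAD3, rose in both. It was at 69.1, 115, 101 and 112 CPM with TGFb and at 21.2 to 46.2 CPM (median 33.2) in untreated cultures of the plate, without overlap. Tgfbr1 rose by 1.63 ± 0.33 SE, adjusted p = 0.00474 against all 25 and by 1.57 ± 0.19 SE, adjusted p = 4.96e-06 on the same plate, on the log2 scale, and lost the first call without 2 of the 4 cultures in turn. Bmpr2, a receptor for bone morphogenetic proteins, rose on the same plate alone, to 85.1, 82.1, 98.9 and 99.3 CPM from 24.969 to 45.5 CPM (median 33.1). The log2 fold change was 1.42 ± 0.16 SE, adjusted p = 2.04e-06, and other plates reached 109 CPM. The 7 tested genes for ligands and for proteins that hold or release the latent ligand gave 0 calls against all 25, and 1 rise and 1 fall on the same plate. The fall was Nrros, which tethers latent TGFb on microglia. It stood at 405, 391, 448 and 419 CPM with TGFb, below each of the untreated cultures of the plate (1106 to 1531 CPM (median 1316)). Other plates ranged over 134 to 667 CPM (median 473) and so overlapped. Nrros had a log2 fold change of -1.66 ± 0.09 SE, adjusted p = 2.49e-10 on the same plate and -0.64 ± 0.46 SE, adjusted p = 0.848 against all 25. The rise was Mmp14, a membrane protease that can release latent TGFb, from 1.19 to 8.34 CPM (median 4.27) to 12.1, 11.2, 9.31 and 10.9 CPM (adjusted p = 0.0237 on the same plate). Tgfb1 itself did not pass (14.6, 22.8, 21.2 and 27.9 CPM against 21.2 to 37.4 CPM (median 30.5)).

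Common TGFb target genes moved in part. Of 15 tested, 1 rose against all 25 and 0 fell (0.691% and 0.271% over all genes). On the same plate 3 of 14 rose and 1 fell (1.91% and 4.23% over all genes), with a median of 0.50. Tgfbi rose in both comparisons. Tgfbi, a secreted matrix protein, was at 27.9, 64.2, 53.8 and 72.6 CPM in the TGFb cultures and 9.50 to 22.8 CPM (median 17.958) on the plate without. All 4 were above every untreated culture of both sets. Tgfbi rose by 2.25 ± 0.57 SE, adjusted p = 0.0406 against all 25 and by 1.54 ± 0.25 SE, adjusted p = 0.000148 on the same plate, and with plate as a term its call was lost (1.54 ± 0.56 SE, adjusted p = 0.214). Fn1, the matrix protein fibronectin, was at 12.3, 38.9, 29.009 and 39.7 CPM with TGFb against 1.44 to 11.7 CPM (median 3.49). The edge-well culture 1 was the lowest of the 4 and close to the highest untreated one. Fn1 passed on the same plate (2.45 ± 0.41 SE, adjusted p = 0.000249) and not against all 25 (2.48 ± 0.65 SE, adjusted p = 0.0518). Nuak1, a kinase, passed on the same plate with a log2 fold change of 1.01. Klf10, an early TGFb response gene, was lower at 72 h, at 58.7, 17.5, 28.5 and 32.8 CPM against 44.5 to 202.43 CPM (median 86.9). Culture 1 overlapped with the untreated ones, and Klf10 had a log2 fold change of -1.46 ± 0.30 SE, adjusted p = 0.00181 on the same plate. Id1, an inhibitor of differentiation, was at 103, 78.9, 114 and 110.3 CPM with TGFb and 59.4 to 181 CPM (median 88.9) without. This difference was smaller than the spread (log2 fold change 0.066 ± 0.22 SE, adjusted p = 0.886).

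Promoter windows are shown for 3 of the genes that moved, Cx3cr1 and Tgfbi, which rose, and Mmp12, which fell, because SMAD proteins recognise a short DNA motif. The windows run from 250 bases before to 50 bases after the RefSeq start site in GRCm38.p6, and capitals mark the motif CAGAC or its reverse complement GTCTG, which 49.6% of 32851 RefSeq windows hold. Among named genes with a window, 4 of 7 that rose and 5 of 8 that fell hold at least 1 match. A match is a description of the letters and no evidence of binding. The windows lie at chr9:120068247-120068546 on the minus strand for Cx3cr1, chr13:56609336-56609635 on the plus strand for Tgfbi and chr9:7344147-7344446 on the plus strand for Mmp12, which has 2 windows of which 1 holds a match.
Cx3cr1: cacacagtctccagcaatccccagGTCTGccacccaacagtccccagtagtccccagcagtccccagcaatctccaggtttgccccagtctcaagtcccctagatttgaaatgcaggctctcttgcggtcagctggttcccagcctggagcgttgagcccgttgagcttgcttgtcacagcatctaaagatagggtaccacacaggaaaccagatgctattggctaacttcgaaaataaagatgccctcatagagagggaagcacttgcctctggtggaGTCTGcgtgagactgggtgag
Tgfbi: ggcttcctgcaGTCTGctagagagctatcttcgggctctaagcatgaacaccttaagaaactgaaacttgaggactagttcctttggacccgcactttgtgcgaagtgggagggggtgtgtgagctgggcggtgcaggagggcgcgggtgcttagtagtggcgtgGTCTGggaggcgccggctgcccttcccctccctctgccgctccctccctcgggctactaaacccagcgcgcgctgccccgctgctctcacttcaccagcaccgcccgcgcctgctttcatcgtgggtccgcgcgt
Mmp12: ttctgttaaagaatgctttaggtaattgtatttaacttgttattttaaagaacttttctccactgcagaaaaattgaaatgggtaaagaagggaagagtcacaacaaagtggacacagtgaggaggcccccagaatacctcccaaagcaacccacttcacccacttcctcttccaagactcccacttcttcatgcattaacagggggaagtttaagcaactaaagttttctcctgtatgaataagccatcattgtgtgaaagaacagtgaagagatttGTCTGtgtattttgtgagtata

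The homeostatic genes of microglia were the list with the most rises. Of 25 tested, 5 rose and 0 fell against all 25 untreated cultures (0.691% and 0.271% over all genes). The list median was 1.39 beside 0.14 over all genes. On the same plate 10 of 24 rose and 0 fell (1.91% and 4.23% over all genes), with a median of 0.80 beside -0.15. With size factors the counts were the same. Over all 25 with plate as a term 4 rose (median 0.79), and with library pool as a term 4 rose (median 0.82). The sum of 33 listed homeostatic genes was 8765, 11200.0, 9355 and 11930.0 CPM in TGFb cultures 1 to 4, against 6659 to 8182 CPM on the plate without TGFb and 2401 to 6937 CPM on other plates. All 4 sums lay above all 25 untreated ones. In bulk RNA such as this, fewer cells of a type and less RNA per cell cannot be told apart.

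**Figure D2:**
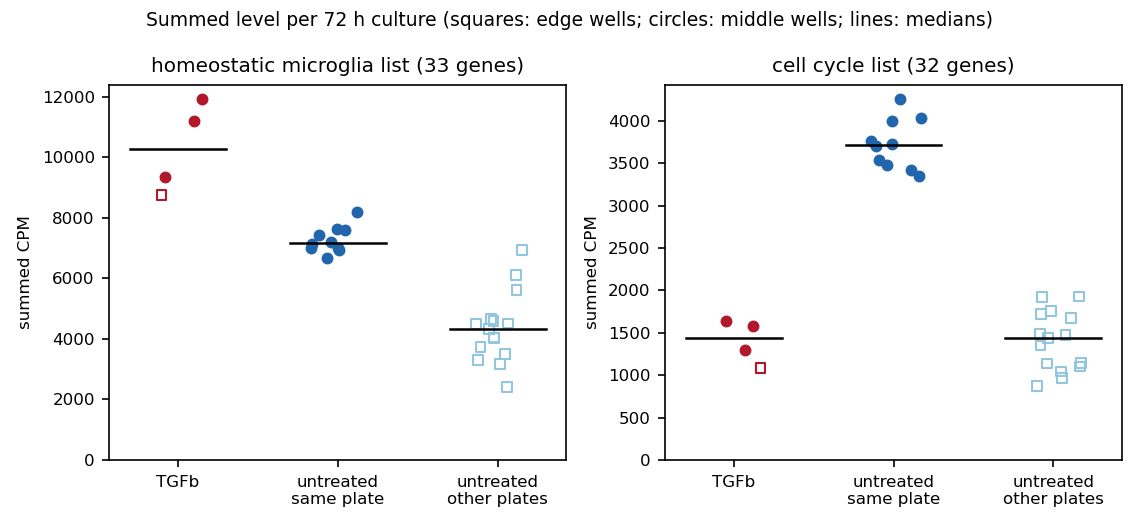
Summed CPM of 33 homeostatic microglial genes and of 32 cell cycle genes in each culture, for TGFb, untreated on the same plate and untreated on other plates, with squares for edge wells and circles for middle wells. The TGFb cultures are above every untreated culture for the homeostatic sum, and for the cell cycle sum (1086 to 1635 CPM) they fall within the range of other plates (874 to 1928 CPM) and below the same plate (3346 to 4261 CPM).

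Tmem119, a membrane protein used as a marker of microglia, was at 84.5, 182, 146 and 131 CPM with TGFb, 1.19 to 10.7 CPM (median 5.03) in the untreated cultures of the plate and 0.0941 to 42.8 CPM (median 15.016) on other plates. No untreated culture reached the lowest TGFb culture. Tmem119 rose by 3.65 ± 0.67 SE, adjusted p = 0.0015 against all 25 and by 4.43 ± 0.35 SE, adjusted p = 1.72e-08 on the same plate. Cx3cr1 encodes the receptor for the neuronal chemokine fractalkine. It stood at 612, 981, 877 and 1150.4 CPM with TGFb, 119.7 to 265 CPM (median 197) on the same plate without and 1.24 to 116 CPM (median 35.3) on other plates. The 3 sets did not overlap at all, other-plate cultures being lowest. Cx3cr1 rose by 4.09 ± 0.98 SE, adjusted p = 0.0237 against all 25 and by 2.16 ± 0.17 SE, adjusted p = 2.23e-08 on the same plate. Olfml3, a secreted glycoprotein of microglia, was at 313, 382, 386 and 450.4 CPM against 24.4 to 55.9 CPM (median 39.9) on the plate, again without overlap in either set. Olfml3 rose by 2.67 ± 0.43 SE, adjusted p = 0.000288 against all 25 and by 3.26 ± 0.19 SE, adjusted p = 4.13e-10 on the plate.

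Serpine2, an inhibitor of thrombin, went from 58.2 to 327 CPM (median 175) to 963, 839.7, 1098 and 835 CPM, a log2 fold change of 2.73 ± 0.33 SE, adjusted p = 5.38e-06 on the plate. F11r, a junction adhesion molecule, went from 3.25 to 18.8 CPM (median 6.39) to 46.8, 68.2, 77.1 and 88.7 CPM, a log2 fold change of 3.14 ± 0.33 SE, adjusted p = 9.16e-07. Both rose against all 25 as well, by 3.41 and 2.66, and no untreated culture reached the TGFb range. Fcrls, an Fc receptor-like protein of microglia, was uneven among the TGFb cultures, at 788, 3072, 1262 and 3044 CPM, against 266 to 716 CPM (median 514). Cultures 1 and 3 were lower than 2 and 4, and all 4 were above every untreated culture. Fcrls passed on the same plate (1.88 ± 0.30 SE, adjusted p = 0.000138) and not against all 25 (2.45 ± 0.66 SE, adjusted p = 0.0635).

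Golm1, Slco2b1, P2ry12 and Ltc4s also rose on the same plate, by 1.81, 1.06, 1.17 and 1.38 on the log2 scale. None of them passed against all 25. P2ry12 remained a low transcript, with 2.37 to 7.93 CPM (median 4.37) in untreated cultures of the plate, and its groups overlapped. None of the list fell on the plate. Csf1r, the receptor that keeps microglia alive, was lower in each TGFb culture (2145, 2018, 2446 and 2721 CPM) than in each untreated culture of the plate (3632 to 5115 CPM (median 3956)). The change was less than 2-fold (-0.80 ± 0.10 SE, adjusted p = 4.52e-06).

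**Figure D3:**
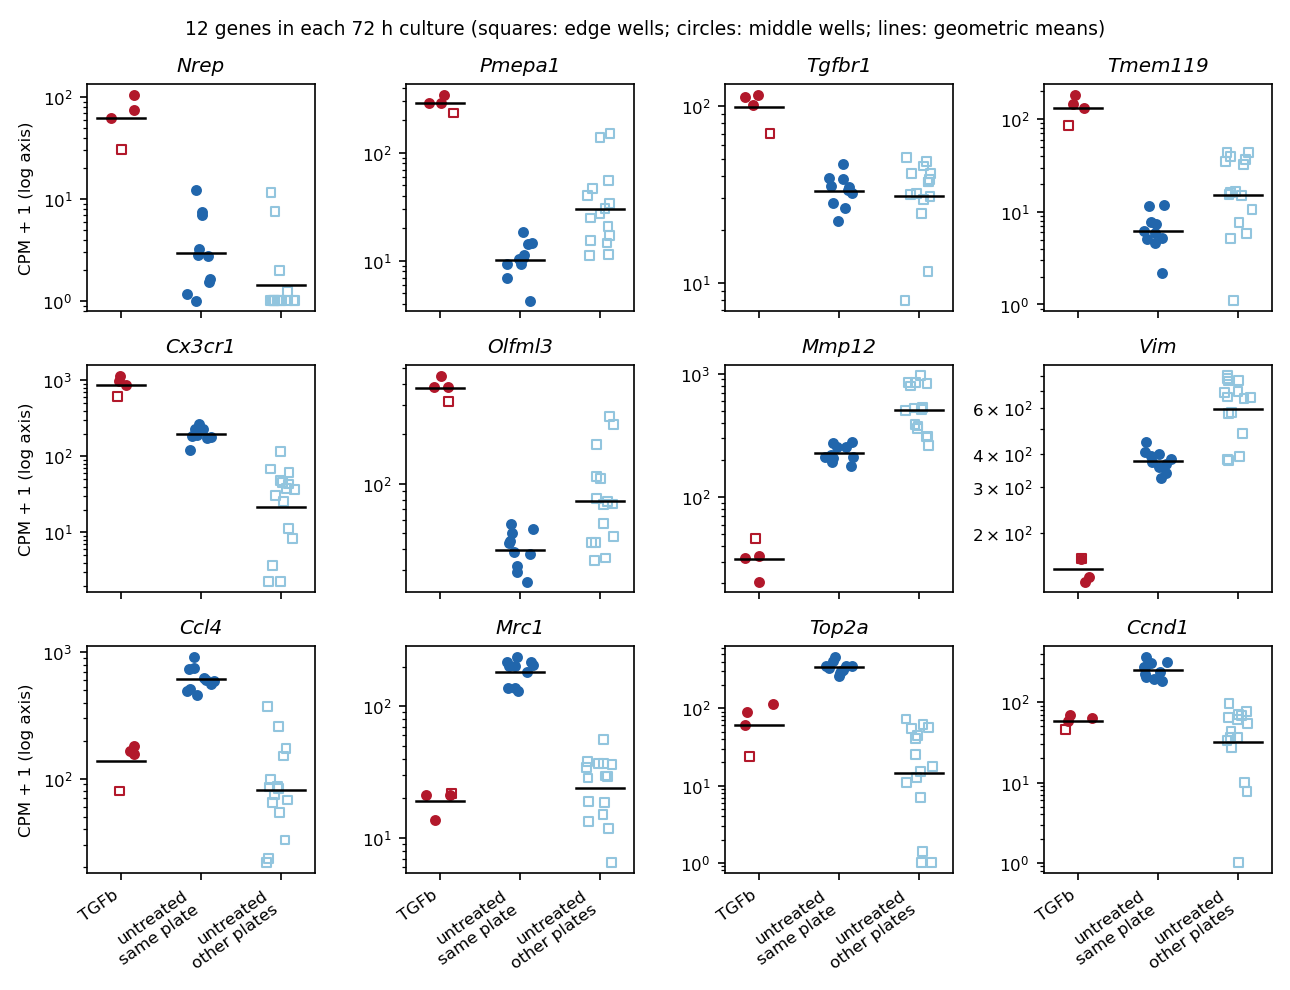
CPM + 1 (log axis) of 12 genes in each culture, for TGFb at 72 h, untreated on the same plate and untreated on other plates, with squares for edge wells, circles for middle wells and lines at the geometric means. The TGFb cultures stand apart from the same-plate cultures in genes such as Nrep and Mmp12. The other-plate cultures lie further away in Cx3cr1, Mmp12 and Vim. In Ccl4, Mrc1, Top2a and Ccnd1 they overlap with the TGFb cultures.

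Of the 12 largest rises, 11 are given here, and 8 of them have not yet been described (the others are Pmepa1, Cx3cr1 and Tmem119). Nrep, a regulator linked to TGFb signalling and to neuronal regeneration, was at 29.4, 73.7, 60.9 and 104 CPM with TGFb and 0 to 11.2 CPM (median 1.79) in untreated cultures of the plate. Gcnt2, which adds branches to surface glycans, was at 47.9, 86.3, 66.0 and 82.1 CPM and 0 to 4.88 CPM (median 0.836). Chst1, a sulphotransferase for keratan sulphate, was at 35.3, 48.4, 66.7 and 50.2 CPM and 0 to 1.03 CPM (median 0.249). These 3 were near or at 0 in most untreated cultures, and the TGFb cultures were above all 25. Against all 25 their log2 fold changes were 5.02 ± 0.65 SE, adjusted p = 9.24e-06 for Nrep, 4.93 ± 0.72 SE, adjusted p = 6.37e-05 for Gcnt2 and 4.76 ± 0.68 SE, adjusted p = 4.46e-05 for Chst1. On the same plate they were 4.40, 5.11 and 5.25. No untreated culture of the plate passed 5 CPM for Gcnt2 or Chst1. Both therefore entered the same-plate test only through the 4 TGFb cultures, in which they are high, so their same-plate changes are a description.

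Npnt, the matrix protein nephronectin, was at 22.8, 29.1, 41.1 and 30.9 CPM with TGFb and 0 to 5.13 CPM (median 0.513) on the plate without. Col14a1, a fibril-associated collagen, stood at 13.7, 18.2, 24.8 and 32.8 CPM and 0 to 8.91 CPM (median 0.764), and Whrn, a scaffold protein of hair cells and neurons, at 16.6, 35.4, 12.1 and 29.3 CPM and 0 to 5.74 CPM (median 0.940). In none of these 3 did an untreated culture reach the lowest TGFb culture. They rose against all 25 by 4.54 ± 0.43 SE, adjusted p = 3.53e-08, 3.75 ± 0.57 SE, adjusted p = 0.000138 and 3.78 ± 0.54 SE, adjusted p = 4.46e-05, in that order. Npnt entered this test only through the TGFb cultures, in which it is high, so its change is a description. Col14a1 was highest in culture 4, in which the fibroblast and mural markers were also highest (149 CPM), and their part in the rise of Col14a1 was not tested. Ctla2a, a cysteine protease inhibitor, was at 240.4, 311, 337 and 331 CPM and 22.6 to 58.0 CPM (median 38.6) (3.99 ± 0.67 SE, adjusted p = 0.000472 against all 25). Its near-identical neighbour Ctla2b makes the assignment of reads uncertain. Igfbp5, which binds insulin-like growth factors, was at 82.3, 83.1, 80.1 and 116 CPM and 1.94 to 13.1 CPM (median 3.62), but overlapped with other plates (0 to 90.4 CPM (median 12.4)). Igfbp5 rose by 3.66 ± 0.84 SE, adjusted p = 0.016 against all 25 and by 4.14 ± 0.35 SE, adjusted p = 5.39e-08 on the plate. Of these 11 rises, 10 had all 4 TGFb cultures above all 25 untreated ones (0.905% of all genes tested) and 11 had them above those of the plate (2.8%). The genes were chosen for the size of this change, so these counts are a description.

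Matrix, adhesion and cytoskeletal genes moved in both directions. Of 26 tested, 1 rose and 2 fell against all 25 (0.691% and 0.271% over all genes). On the same plate 4 rose and 5 fell (1.91% and 4.23% over all genes), with a median of -0.02. Mmp12, the macrophage elastase, was at 45.5, 32.3, 31.1 and 19.6 CPM in the TGFb cultures, 179 to 279.8 CPM (median 215) on the plate without and 262 to 961 CPM (median 515) on other plates. Every TGFb culture was below every untreated one. Mmp12 had a log2 fold change of -3.54 ± 0.38 SE, adjusted p = 2.25e-07 against all 25 and -2.83 ± 0.17 SE, adjusted p = 4.13e-10 on the plate. Vim, the intermediate filament vimentin, fell from 324.16 to 446 CPM (median 379) to 158.86, 135, 129 and 158 CPM without overlap with either set. Vim had a log2 fold change of -1.78 ± 0.24 SE, adjusted p = 1.62e-05 against all 25 and -1.38 ± 0.10 SE, adjusted p = 6.35e-09 on the plate. Itgb5, an integrin subunit that pairs with alpha v, was higher, at 589, 954, 946 and 1216 CPM against 140.2 to 470.4 CPM (median 278). Itgb5 rose by 1.79 ± 0.39 SE, adjusted p = 0.0103 against all 25, a call lost without 3 of the 4 cultures in turn, and by 1.66 ± 0.25 SE, adjusted p = 8.01e-05 on the plate. Tagln2, an actin-binding protein, and Rgs1, a regulator of G-protein signalling, fell on the plate (log2 fold changes -1.54 and -1.09) and did not pass against all 25. Mmp13, a collagenase, was at 0.296, 0, 0.282 and 2.60 CPM with TGFb and spread over 0.594 to 39.3 CPM (median 5.37) without, and passed on the plate (-1.99 ± 0.60 SE, adjusted p = 0.0268).

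The other named falls included receptors, an iron exporter and secreted proteins. Clec4n, the lectin receptor Dectin-2, was at 15.5, 5.26, 8.64 and 11.1 CPM with TGFb, 23.2 to 46.2 CPM (median 35.3) on the plate without and 182 to 579 CPM (median 300.2) on other plates. The 3 sets were apart. Clec4n had a log2 fold change of -3.61 ± 0.76 SE, adjusted p = 0.00633 against all 25 and -1.74 ± 0.24 SE, adjusted p = 2.82e-05 on the plate. Slc40a1, the iron exporter ferroportin, was at 237, 126, 123 and 106 CPM against 408 to 634 CPM (median 579), with the edge-well culture 1 highest of the 4. It did not overlap with the plate (-1.98 ± 0.16 SE, adjusted p = 2.52e-08). Other plates ran over 39.3 to 2333 CPM (median 1363) and so overlapped (-2.57 ± 0.57 SE, adjusted p = 0.0103 against all 25). Cfp, the complement activator properdin, was at 69.4, 85.6, 87.2 and 107 CPM and 308 to 456 CPM (median 388). Cfp had a log2 fold change of -2.15 ± 0.34 SE, adjusted p = 0.000155 against all 25 and -2.16 ± 0.12 SE, adjusted p = 1.66e-10 on the plate. Its TGFb cultures were below all on the plate but not below all on other plates, whose lowest was 52.6 CPM.

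Akr1b8, an aldo-keto reductase, was at 21.9, 15.4, 9.86 and 9.83 CPM with TGFb and 23.043 to 40.4 CPM (median 32.2) on the plate without. Akr1b8 had a log2 fold change of -2.48 ± 0.55 SE, adjusted p = 0.0107 against all 25 and -1.17 ± 0.22 SE, adjusted p = 0.000652 on the plate. S100a10, the light chain of annexin A2, was at 4.64, 1.75, 2.54 and 5.49 CPM and 9.54 to 19.7 CPM (median 13.8) (-2.44 ± 0.44 SE, adjusted p = 0.00112 against all 25). Hk3, a hexokinase of myeloid cells, was at 136, 139, 117 and 141 CPM and 257 to 478 CPM (median 346) (-1.80 ± 0.28 SE, adjusted p = 0.000155 against all 25, and -1.38 on the plate). Its 4 TGFb values were close together. Gp49a, an immunoglobulin-like receptor, was at 102, 90.8, 68.9 and 62.6 CPM and 166 to 272.47 CPM (median 201.54) (-1.78 ± 0.30 SE, adjusted p = 0.000442 against all 25, and -1.34 on the plate). It has a near-identical paralogue, Lilrb4, so that reads may be split between them. These 4 had no overlap with any untreated culture. Ahnak, a giant scaffold protein, was at 8.49, 3.51, 7.79 and 5.64 CPM and 13.4 to 47.6 CPM (median 35.4), apart from the plate but not from other plates. Ahnak had a log2 fold change of -1.83 ± 0.40 SE, adjusted p = 0.00983 against all 25 and -2.21 ± 0.27 SE, adjusted p = 6.1e-06 on the plate. Of the 12 falls, chosen in the same way, 7 had all 4 TGFb cultures below all 25 untreated ones (0.224% of all genes) and 11 had them below all 10 of the plate (5.96%), Cd36 being the exception.

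Chemokines were lower on the same plate, while only Ccl6 passed against all 25. Of 14 tested, 0 rose and 1 fell against all 25 (0.691% and 0.271% over all genes). On the plate 1 of 12 rose and 6 fell (median -0.94), or 2 and 5 with size factors, while over all genes 1.91% rose and 4.23% fell there. Ccl6, a chemokine of myeloid cells, was at 29.3, 33.3, 29.3 and 39.031 CPM against 87.6 to 161.78 CPM (median 149) on the plate and 33.5 to 279 CPM (median 119.6) on other plates. Ccl6 had a log2 fold change of -1.75 ± 0.38 SE, adjusted p = 0.00765 against all 25 and -2.07 ± 0.15 SE, adjusted p = 4.39e-09 on the plate. Ccl4, which attracts monocytes and T cells, was at 78.8, 155, 180.4 and 165 CPM and 461.78 to 923 CPM (median 597). Its TGFb cultures were below all of the plate (-2.14 ± 0.19 SE, adjusted p = 1.02e-07). They were among those of other plates, which ran over 20.5 to 371 CPM (median 82.2) (-0.39 ± 0.80 SE, adjusted p = 0.968 against all 25). The other falls on the plate were Ccl2 (-2.29), Ccl3 (-1.04), Ccl9 (-2.42) and Cxcl2 (-1.48), and the rise was Cxcl14 (1.15 ± 0.13 SE, adjusted p = 1.62e-06), a chemokine of epithelia and brain. Inflammatory cytokines and their regulators gave 0 calls of 12 against all 25 and 1 fall of 10 on the plate. This was Il1a, at 3.26, 4.21, 1.13 and 4.05 CPM against 3.19 to 33.3 CPM (median 9.49) (adjusted p = 0.0289), whose call was lost with size factors.

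Receptors for uptake gave more falls than rises. Over all genes tested, 0.691% rose and 0.271% fell against all 25, and 1.91% rose and 4.23% fell on the plate, so falls outnumbered rises there in general. The phagocytic, scavenger and Fc receptors gave 1 rise and 3 falls of 23 against all 25, and 2 rises and 6 falls on the plate, or 2 and 3 with size factors (median -0.49). Scarb2, a lysosomal membrane protein, rose in both, from 146 to 266 CPM (median 213.82) to 788, 549.25, 730.2 and 590.4 CPM, without overlap and by 1.53 ± 0.28 SE, adjusted p = 0.00159 against all 25. Cd36, a scavenger receptor for oxidised lipid, fell in both, to 616, 309, 304 and 243.15 CPM from 607 to 890.4 CPM (median 786) on the plate and 527 to 3258 CPM (median 2054) on other plates. Culture 1 overlapped with both sets. Cd36 had a log2 fold change of -1.92 ± 0.41 SE, adjusted p = 0.00764 against all 25 and -1.17 ± 0.16 SE, adjusted p = 2.63e-05 on the plate. Mrc1, the mannose receptor, showed how much the choice of untreated cultures mattered. It was at 20.6, 12.6, 20.2 and 20.2 CPM with TGFb, 129.6 to 236 CPM (median 201.2) on the plate without and 5.49 to 55.1 CPM (median 28.2) on other plates. It fell on the plate (-3.26 ± 0.18 SE, adjusted p = 1.66e-10) but did not pass against all 25 (-1.50 ± 0.75 SE, adjusted p = 0.646). Markers of perivascular macrophages, a list that holds Mrc1, summed to 195.7 to 212.8 CPM with TGFb, 461 to 708 CPM on the plate without and 91.4 to 444 CPM on other plates, with Lyve1 at 0. Of 3 tested markers of this list, 2 fell on the plate, Mrc1 among them, and 0 were called against all 25.

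Among 12 tested Toll-like receptors and partners, 0 were called against all 25 (0.961% over all genes). On the plate, where 1.91% of all genes rose and 4.23% fell, 1 of 11 fell. This was the LPS co-receptor Cd14, at 27.3, 25.3, 17.1 and 27.9 CPM against 44.8 to 94.0 CPM (median 64.3) (-1.38 ± 0.20 SE, adjusted p = 5.55e-05). Complement genes gave 1 fall of 8 in each comparison, Cfp. C1qa, a chain of the first complement component, was above every untreated culture, at 1551, 2085, 1998 and 2025 CPM against 986 to 1333 CPM (median 1224) on the plate. The change was less than 2-fold there (0.67 ± 0.09 SE, adjusted p = 3.49e-05). Interferon response genes gave 0 calls of 27 against all 25 and 0 rises and 3 falls of 26 on the plate, Oas2, Ifitm3 and Ifi27l2a, of which Ifi27l2a alone passed with size factors. The 12 MHC class I genes gave 0 calls in both comparisons, and 1 of 5 MHC class II genes rose on the plate. This was H2-DMa, at 32.7, 51.9, 42.2 and 46.3 CPM against 0.531 to 26.4 CPM (median 11.9) (2.06 ± 0.49 SE, adjusted p = 0.00555).

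Genes raised in disease-associated microglia, the state seen around amyloid plaques, went both ways. Of 24 tested, 2 rose (Ctsd and Cd9) and 1 fell (Lgals3) against all 25 (0.691% and 0.271% over all genes). On the plate 6 rose and 2 fell (1.91% and 4.23% over all genes), with a median of 0.29. Ctsd, the lysosomal protease cathepsin D, was at 10918, 14290.0, 14886 and 8888 CPM with TGFb and 3817 to 6696 CPM (median 4898) on the plate without. Ctsd rose by 1.36 ± 0.24 SE, adjusted p = 0.000694 against all 25. Cd9, a tetraspanin, was at 1206, 1335, 1307 and 1542 CPM and 289 to 832 CPM (median 708) on the plate. Cd9 rose by 1.67 ± 0.31 SE, adjusted p = 0.00146 against all 25. On the plate its rise was smaller, at 0.99 to 1.11 when 1 TGFb culture was left out, with the call lost in 1 of 4 such fits. Lgals3, the lectin galectin-3, was at 696, 592, 548 and 748 CPM and 1404 to 2193 CPM (median 1910.4). Lgals3 had a log2 fold change of -1.68 ± 0.17 SE, adjusted p = 1.75e-07 against all 25 and -1.51 ± 0.11 SE, adjusted p = 6.87e-09 on the plate. In all 3 the TGFb cultures were separate from every untreated culture.

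Apoe, the main lipid carrier of the brain, was at 40713, 48006, 36533 and 39829 CPM with TGFb and 14925 to 19958 CPM (median 16771) on the plate without. Apoe rose on the plate (1.29 ± 0.09 SE, adjusted p = 2.34e-09), to levels within the range of other plates (27101 to 56911 CPM (median 49527)). Spp1 (osteopontin), the receptor kinase Axl and cathepsin L (Ctsl) also rose on the plate, by 1.27, 1.12 and 1.08, and were not called against all 25. Lpl, lipoprotein lipase, went the other way on the plate, to 4052, 4092, 4625 and 3287 CPM from 8106 to 12356 CPM (median 10033) (-1.32 ± 0.11 SE, adjusted p = 3.16e-08). The microglial receptor Trem2 was at 884, 779, 869 and 777 CPM with TGFb and 621 to 746 CPM (median 679.7) without. Its change of 0.28 ± 0.08 SE, adjusted p = 0.0212 was under the 2-fold minimum.

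Lipid handling genes under LXR and PPAR control, nuclear receptors that sense sterols and fatty acids, gave 1 rise (Mylip) and 1 fall (Cd36) of 13 against all 25. On the plate they gave 4 rises and 3 falls. Over all genes 0.691% rose and 0.271% fell against all 25, and 1.91% and 4.23% did so on the plate. Mylip, which marks the LDL receptor for degradation, rose to 301, 268, 223 and 267 CPM from 45.2 to 136 CPM (median 111) (1.33 ± 0.21 SE, adjusted p = 0.000126 on the plate). The apolipoprotein Apoc2 rose to 54.6, 35.8, 64.8 and 56.4 CPM from 6.53 to 16.8 CPM (median 10.8) (2.13 ± 0.24 SE, adjusted p = 2.5e-06). Apoc1 and the desaturase Scd2 rose on the plate by 1.54 and 1.17, and Fabp4, a fatty acid carrier, fell (log2 fold change -1.67 ± 0.20 SE, adjusted p = 5.52e-06). The 18 genes of cholesterol synthesis gave 0 calls in both comparisons. Glycolysis and hypoxia genes gave 1 call of 18 in each, the rise of the oxygen sensor Egln3. It was at 15.3, 3.16, 7.89 and 6.94 CPM against 0 to 5.03 CPM (median 0.941), with overlap (2.06 ± 0.55 SE, adjusted p = 0.013), and the call against all 25 was lost with library pool as a term. Without culture 1, 3 or 4 Egln3 was too low to be tested in either comparison. It entered both mainly through the TGFb cultures, in which it is high, so its changes are a description. Markers of an IL-4 response gave 0 calls of 6 against all 25 and 1 of 3 on the plate, Mrc1.

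Of the transcription factors of macrophages, 0 of 31 passed against all 25 (0.961% over all genes). On the plate 0 of 30 rose and 4 fell (1.91% and 4.23% over all genes). Pparg, which drives lipid genes, was at 5.83, 9.47, 4.88 and 5.64 CPM with TGFb and 34.6 to 61.0 CPM (median 42.5) on the plate without (-2.65 ± 0.20 SE, adjusted p = 7.56e-09). Nr4a1, an early response factor, was at 6.32, 5.26, 3.10 and 2.17 CPM and 18.1 to 54.2 CPM (median 30.6) (-2.66 ± 0.29 SE, adjusted p = 1.57e-06). Maf, a factor of mature macrophages, was at 146, 227, 201.93 and 209.8 CPM and 444 to 613 CPM (median 499.6) (-1.37 ± 0.11 SE, adjusted p = 3.16e-08). All of these, with Fos (-1.70), were below each untreated culture of the plate and within the range of other plates.

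Cell cycle genes were the list whose calls differed most between the comparisons. On the same plate 25 of 30 tested fell and 0 rose (4.23% and 1.91% over all genes), with a median of -2.02. Against all 25 untreated cultures 0 passed in either direction (0.961% over all genes), with a median of 0.20. Their sum over 32 genes was 1086, 1296, 1583 and 1635 CPM in TGFb cultures 1 to 4, against 3346 to 4261 CPM in untreated cultures of the plate and 873.7 to 1928 CPM on other plates. Top2a, the topoisomerase of dividing cells, was at 22.5, 58.9, 88.7 and 112 CPM with TGFb, 261 to 463.04 CPM (median 339.8) on the plate without and 0 to 71.7 CPM (median 16.8) on other plates. Top2a had a log2 fold change of -2.46 ± 0.26 SE, adjusted p = 1.22e-06 on the plate and 0.27 ± 1.30 SE, adjusted p = 0.989 against all 25. Ccnd1, cyclin D1, followed the same order, at 44.4, 67.5, 58.1 and 62.1 CPM, 183 to 368 CPM (median 253) and 0 to 95.6 CPM (median 42.6) (-2.12 ± 0.17 SE, adjusted p = 2.34e-08 on the plate). With plate as a term 13 genes of the list fell (over all genes 2.04% were called and 1.26% fell). With library pool as a term 9 fell, and with edge or middle well as a term 0, with a median of -0.99. On the plate the fall of the list held without the edge-well culture 1, with 24 genes lower. The other-plate untreated cultures were all in edge wells, so what edge position contributes to their low values cannot be told apart from the plate.

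**Figure D4:**
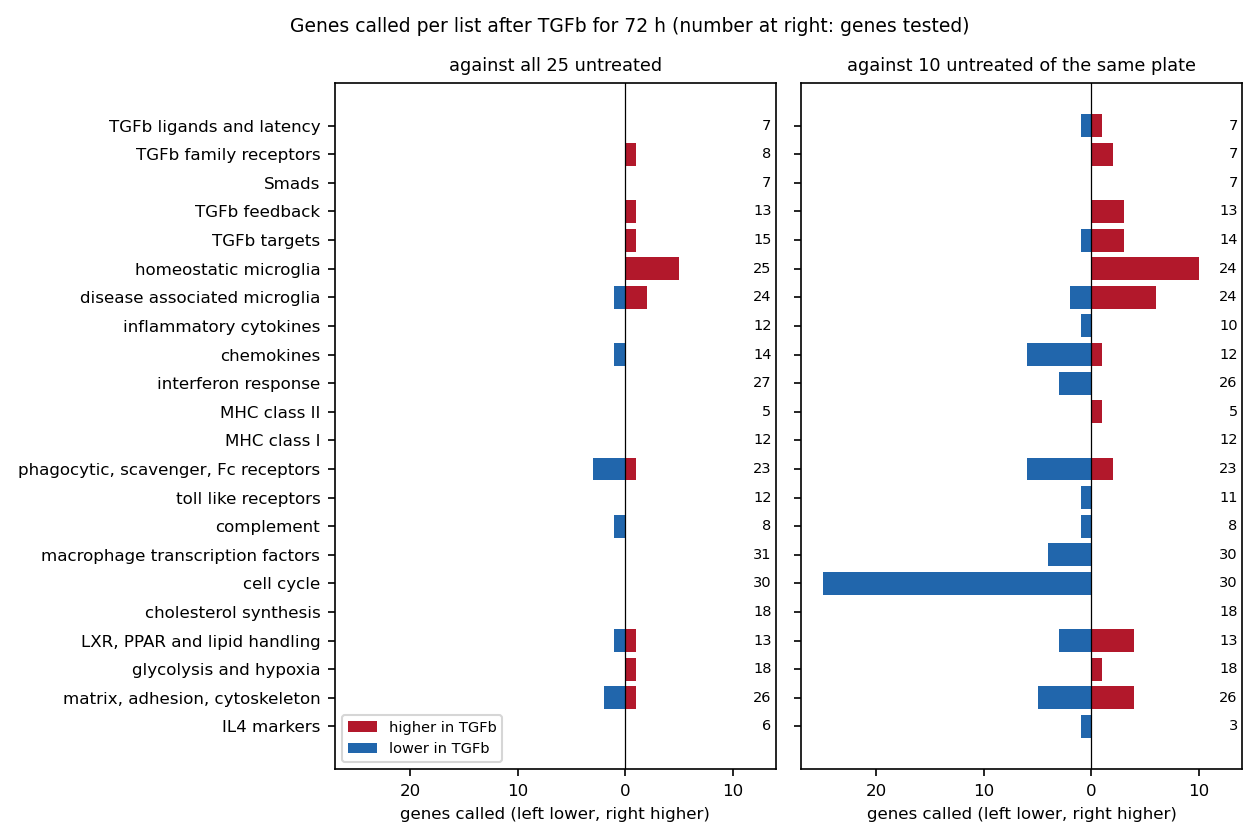
Number of genes called higher and lower with TGFb at 72 h in each gene list, against all 25 untreated cultures and against the 10 of the same plate. The homeostatic list has the most rises (5 and 10) and the cell cycle list the most falls on the same plate (25), with 0 against all 25.

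A 24 h exposure to the same dose of TGFb was measured in 8 other cultures on 3 plates, beside 40 untreated cultures of 24 h on 6 plates. These 8 were from 2 other lots of cells than the 72 h cultures, and of the 40 untreated ones 8 were from the 72 h lot. Duration and cell lot therefore cannot be told apart among the TGFb cultures, in any difference between the times. With plate as a term 76 genes were higher and 77 lower of 11599 tested (1.32%, with 0.655% higher and 0.664% lower), and without it 332 and 123 (3.92%). Of genes tested at both times, 40 rose at 24 h with plate as a term and at 72 h on the same plate. They are 67.8% of those that rose at 24 h and 21.7% of those that rose at 72 h. The falls shared 38 genes, 53.5% of those at 24 h and 9.29% of those at 72 h, and 0 genes were called in opposite directions. Of the homeostatic list, 5 rose and 1 fell of 24 at 24 h with plate as a term. The cell cycle list gave 0 calls of 30 there, with a median of -0.54, and the chemokines 6 falls of 13.

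The size of the change differed between the times for 20 genes of 12198 (0.164%), by a test of the difference itself, and for 18 with plate as a term (0.148%). Among named genes, Pmepa1 rose by 1.63 at 24 h and by a further 2.24 ± 0.53 SE, adjusted p = 0.0394 at 72 h. With plate as a term it rose by 2.15 at 24 h and by a further 2.66 ± 0.40 SE, adjusted p = 1.85e-05 at 72 h. Ctla2a differed by 3.52 ± 0.66 SE, adjusted p = 0.00179, and by 2.09 ± 0.54 SE, adjusted p = 0.0824 with plate as a term.

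Falls that were deeper at 72 h included Mmp12, whose 24 h change was 0.25 ± 0.37 SE, adjusted p = 0.745, or -0.89 ± 0.15 SE, adjusted p = 7.97e-05 with plate as a term. The difference of the 72 h change was -3.79 ± 0.59 SE, adjusted p = 8.99e-05, or -1.94 ± 0.25 SE, adjusted p = 4.91e-07 with plate as a term. Ahnak differed by -2.39 ± 0.52 SE, adjusted p = 0.0173 (-1.87 ± 0.34 SE, adjusted p = 0.000951 with plate as a term). S100a10 and Vim differed by -2.26 ± 0.49 SE, adjusted p = 0.0172 and -1.90 ± 0.34 SE, adjusted p = 0.000935, and both missed the threshold with plate as a term (adjusted p = 0.264 and 0.0536). Among the lists, Fcrls (3.84 ± 0.69 SE, adjusted p = 0.000935), C1qa (1.65 ± 0.35 SE, adjusted p = 0.0168) and C1qb (1.83 ± 0.40 SE, adjusted p = 0.0172) had greater 72 h effects, and each call was lost with plate as a term (adjusted p = 0.121, 0.495 and 0.238). Lgals3 had a more negative one (-1.93 ± 0.33 SE, adjusted p = 0.000479), and also with plate as a term (-1.31 ± 0.26 SE, adjusted p = 0.0034). With plate as a term alone, the named genes Tmem119 (2.62 ± 0.56 SE, adjusted p = 0.0128) and Igfbp5 (2.95 ± 0.55 SE, adjusted p = 0.00133) differed. So did Olfml3 (2.14 ± 0.35 SE, adjusted p = 0.000115), Apoe (1.29 ± 0.20 SE, adjusted p = 5.3e-05) and Cxcl14 (1.24 ± 0.24 SE, adjusted p = 0.00257).

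TGFb was also given with low-dose LPS (lipopolysaccharide of bacteria, 0.00001 µg/µl) for 72 h, in 8 cultures on 2 plates, beside 11 cultures with that dose of LPS alone on 3 plates. The labels give no TGFb dose for these cultures, so it may differ from that of TGFb alone. There, 240 genes were higher with TGFb and 209 lower of 9942 tested (4.52%, with 2.41% higher and 2.1% lower), and 447 genes were called with plate as a term (4.5%). Of genes that rose with TGFb alone on the same plate, 94 of 177 tested in both rose with LPS too (53.1%), which is 41.0% of the 229 that rose with LPS. The falls shared 64, 20.5% of 312 and 34.8% of 184, and 0 were called in opposite directions. The homeostatic list gave 6 rises and 0 falls of 20 on LPS, among them Tmem119 (3.82 ± 0.41 SE, adjusted p = 6.49e-07) and Cx3cr1 (3.40 ± 0.31 SE, adjusted p = 3.4e-08). Slc40a1 (-3.38 ± 0.37 SE, adjusted p = 7.66e-07), Ccl6 (-3.53 ± 0.23 SE, adjusted p = 1.06e-10) and Gp49a (-2.24 ± 0.17 SE, adjusted p = 1.96e-09) were lower. The cell cycle list gave 0 calls of 23 on LPS, with a median of -0.58.

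The effect of TGFb alone differed from its effect on LPS for 25 genes of 11449 (0.218%), and for 460 of 10239 where only cultures of the same plate were used (4.49%, 83 higher and 377 lower). Size factors changed the latter to 150 higher and 172 lower, and leaving out 1 culture to between 334 and 608 calls. Npnt was at 0 to 2.97 CPM with TGFb and LPS and at 0 to 1.49 CPM with LPS alone, too low to be tested there. It entered the test of the difference only through the cultures with TGFb alone, in which it is high, so its difference (4.04 ± 0.54 SE, adjusted p = 7.86e-06, and 3.20 ± 0.76 SE, adjusted p = 0.0111 on the same plate) is a description. Of the other 22 named genes, 0 were called in the fit over all plates, and 4 on the same plate alone. These were Cx3cr1 (-1.30 ± 0.24 SE, adjusted p = 0.00164), Mmp12 (-2.19 ± 0.34 SE, adjusted p = 0.000264), Gp49a (1.08 ± 0.22 SE, adjusted p = 0.00394) and Ccl6 (2.05 ± 0.22 SE, adjusted p = 1.71e-06). Among the lists, in the fit over all plates, 3 genes had a higher effect for TGFb alone. They were Spp1 (1.64 ± 0.34 SE, adjusted p = 0.0143), Gpnmb (1.1982 ± 0.27 SE, adjusted p = 0.0275) and the scavenger receptor Marco (3.20 ± 0.54 SE, adjusted p = 0.000861). Trem2 had a lower one in that fit (-1.06 ± 0.24 SE, adjusted p = 0.0319). Tgfbr1 (-2.96 ± 0.60 SE, adjusted p = 0.00378) and Tgfbi (-2.85 ± 0.41 SE, adjusted p = 8.76e-05) had a lower one on the same plate alone. Over all plates they did not pass (adjusted p = 0.378 and 0.556). On the same plate Pmepa1 (-0.63, adjusted p = 0.483), Bambi (1.52, adjusted p = 0.0769) and Ski (-0.73, under 2-fold) were not called. Whrn, which rose with TGFb alone, was at 0.35 ± 0.72 SE, adjusted p = 0.862 on LPS, but the difference was not called (3.43 ± 0.89 SE, adjusted p = 0.098).

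**Figure D5:**
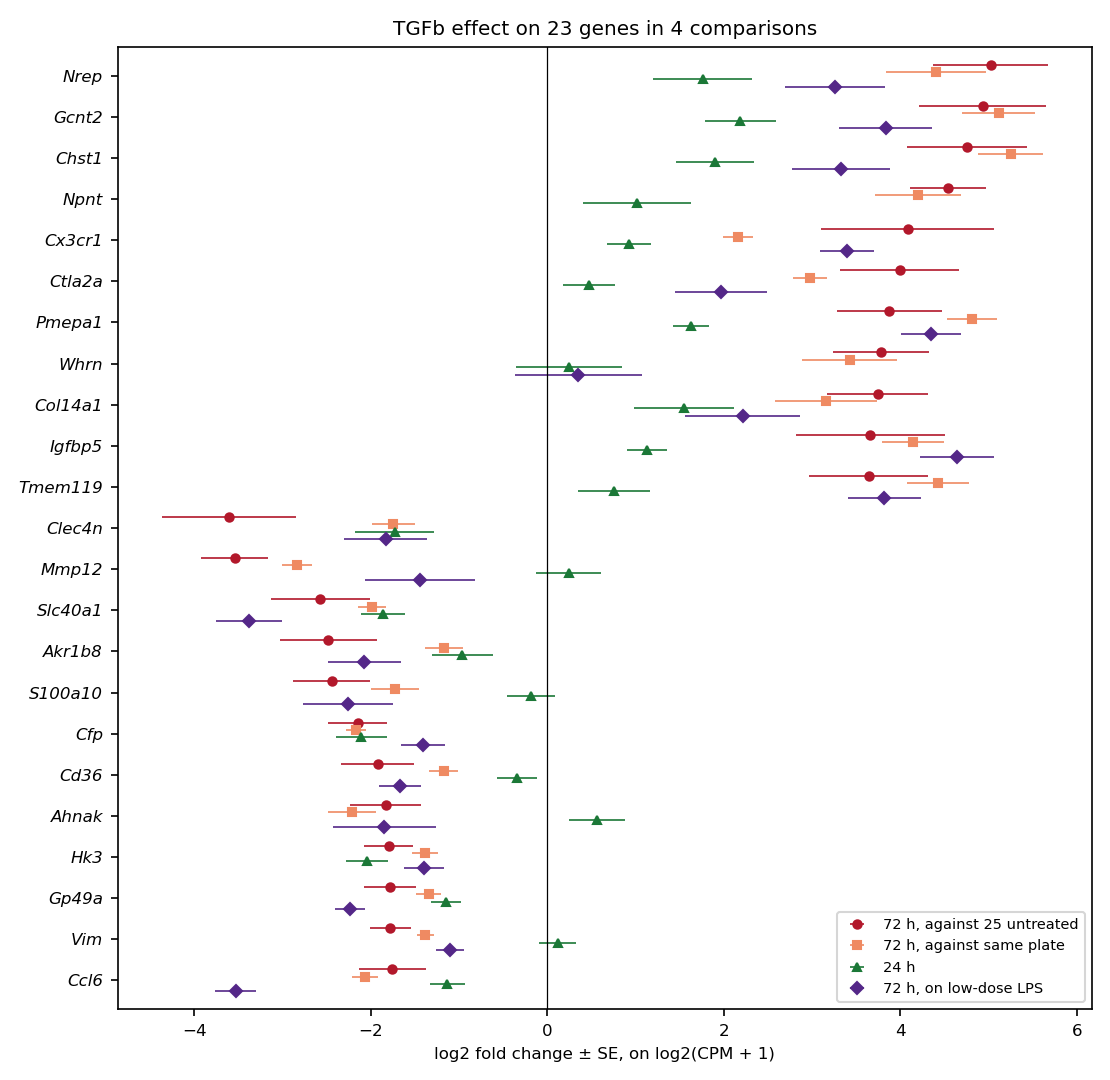
Log2 fold change ± SE (log2(CPM + 1) scale) of the 23 named genes for TGFb at 72 h against all 25 untreated cultures, TGFb at 72 h against the same plate, TGFb at 24 h, and TGFb on low-dose LPS at 72 h. Pmepa1 is higher at 72 h (3.87 and 4.81) than at 24 h (1.63), and Mmp12 is below 0 at 72 h (-3.54 and -2.83) and near 0 at 24 h (0.25). The 24 h values shown are from the fit without plate as a term. With it, Pmepa1 rose by 2.15 at 24 h and Mmp12 had a log2 fold change of -0.89.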

How the data were processed

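RNA of the cultures was amplified with T7 polymerase, made into 3'-end libraries, pooled and sequenced. Per the labels and the study's methods, Salmon 0.7.1 was run by the authors on Ensembl transcripts, reads were added up over the isoforms of a gene and divided by all mapped reads, and this value was deposited. The authors' values are CPM as deposited, although they are called TPM, since no division by length was made. The labels also list the build mm8, which was not needed here since no deposited coordinate was used. Cultures with few reads or few detected genes had been removed by the authors. Values are shares of all mapped reads, so a change in abundant transcripts shifts the others. Low values were not whole multiples of 1 read for nearly all genes (as few as 74.8% in a TGFb culture), so counts were not recovered and no counting interval is given.

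Genes above 5 CPM in at least 4 cultures of a fit were tested on log2(CPM + 1) with limma 3.58.1 (R 4.3.3, moderated 2-sided test with a mean-variance trend, Benjamini-Hochberg over all genes tested), and called at adjusted p under 0.05 and a log2 fold change of at least 1. Fold changes on this scale understate the change of genes near 0. Differences between effects were tested as interaction contrasts. The comparison on the same plate was added after the data had been seen. Groups came from the labels, and plate, well, pool and cell lot from the table's header, and 96 of 784 columns were used. Named were the 12 largest changes in each direction among genes called against all 25 untreated cultures, at 10 CPM or more in the higher group and of the same sign on the same plate, leaving out predicted genes. Some genes are not reported here, 1 of these rises among them, and were left out of the lists and their sums. Of 31 gene lists, members called in either comparison were named in part. Members, lists and comparisons were chosen with earlier results of these data known. Alternatives are given at the end, and the code was tested on simulated data. Microglia isolated from mice were not used here. Figures were drawn with matplotlib 3.10.9.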

Additional observations from a re-analysis of the deposited data

Results flagged for a closer look

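Of 46 groups of named genes that were examined (23 genes in the TGFb cultures and in the untreated cultures of the same plate), 7 held a culture far from the others, where chance marks about 1 in 20. In the TGFb cultures, Igfbp5 was at 116 CPM in culture 4 against 80.1 to 83.1 CPM in the other three, and Slc40a1 at 237 CPM in the edge-well culture 1 against 106 to 126 CPM. In untreated cultures of the same plate, single cultures stood apart at 4.88 CPM for Gcnt2, 5.13 CPM for Npnt and 13.1 CPM for Igfbp5 on the high side, and at 607 CPM for Cd36 and 87.6 CPM for Ccl6 on the low side. All 4 TGFb cultures of Gcnt2, Npnt and Igfbp5 were above these, and those of Ccl6 below.

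Tests of the difference between times marked 6 named genes, on the log2 scale as the 72 h effect minus the 24 h effect. They were 3.52 for Ctla2a and 2.24 for Pmepa1, and -3.79 for Mmp12, -2.26 for S100a10, -2.39 for Ahnak and -1.90 for Vim. With plate as a term Pmepa1, Mmp12 and Ahnak passed and the others did not, while Igfbp5 (2.95) and Tmem119 (2.62) passed in that fit alone. Duration and cell lot cannot be told apart among the TGFb cultures. The effect of TGFb alone minus that on low-dose LPS marked Npnt (4.04), which was too low in the LPS cultures to be tested there and entered only through the cultures with TGFb alone.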

How the results depend on the processing

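The 103 calls against all 25 untreated cultures became 219 with plate as a term, 169 with library pool as a term, 601 with the same plate only, 589 with the same pool only and 156 with no filter on low values, and 57 to 73 without 1 TGFb culture. Other settings gave 97 to 143. The share of higher calls, 74 of 103, was 84 of 219 with plate and 64 of 169 with pool as a term. At 24 h, 455 calls became 153 with plate as a term and 240 with a pseudocount of 5. The 20 calls of the difference between times became 36 with a pseudocount of 5 and 31 with no filter, and the 25 of the difference to LPS became 42 with no filter. On the same plate, 601 calls ranged from 406 to 616. Why the counts moved was not tested.

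Of 38 genes of the lists or the named rule called against all 25, 22 were called under every alternative that could test them, and of 110 on the same plate, 86. The direction reversed for 0 of them. For the named genes this was fixed in advance in 2 alternatives, plate as a term and the same plate only. They were chosen to have the same sign on the same plate, and plate as a term gives the same fold change. Calls lost with plate and with pool as a term were those of Cx3cr1 (2.16 and 2.10), Tgfbi (1.54 and 1.48) and Clec4d (-0.69 and -0.52), and those of Egln3 (1.51) and Flt1 (1.84) were lost with pool. Of the named genes, 8 lost a call against all 25 without at least 1 culture (Cx3cr1, Igfbp5, Akr1b8, Cd36, Slc40a1, Ahnak, Ccl6 and Clec4n), as did 7 other genes (Mylip, Tgfbi, Clec4d, Cspg4, Flt1, Itgb5 and Tgfbr1), and on the same plate the 21 named genes that could be tested kept theirs. There, Clec4e, Ltc4s, Mmp13, Mmp14, Oas2, P2ry12, Apoc1, Ccl3, Cenpf, Il1a and Nuak1 lost theirs without at least 2 of the 4 cultures in turn. No paired analysis was possible because replicate numbers were given in accession order and only name the cultures. A term for cell lot could not be fitted to the 72 h comparison, whose cultures are of 1 lot, and a fit over all 72 h conditions without LPS and a count test were not run.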
